A study of Homo sapiens with 2 samples.

Results

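Genes of the ubiquitin system were compared between S2-013 pancreatic cancer cells treated with a MEK inhibitor and untreated S2-013 cells. The members were genes whose symbol in the platform annotation begins with a proteasome subunit prefix, UBE2, FBXO, FBXW, FBXL, KLHL, CUL or USP with a digit, or OTU, without antisense genes and UBE2C. The annotation named 16098 of 53617 probe sets, so a family can have genes that are not counted here. There were 189 members among 13763 named genes, and 124 had a value of at least 4.78 on the log2 scale in 1 or both arrays. That level, called the floor, is the middle of the gene means over both arrays, and 7164 of all genes reached it. Whether a dimmer probe set was above background is unknown.

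The cells of both conditions carried a knockdown of HOXB7, a homeobox transcription factor, and a plasmid that re-expresses it. They differed in the inhibitor of MEK, the kinase that activates ERK. Each condition was measured on 1 Affymetrix whole-transcript array, so no value here has a replicate error, no test could be run, and differences describe these 2 cultures only. Name, dose and duration of the inhibitor treatment are not given in the labels used here, and S2-013 is a single established line.

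Proteasome subunit genes were sought too, but the search found 0 of them in the probe annotation used here. The only symbol with a proteasome prefix was PSMC3IP, which encodes a partner of the meiotic recombinase DMC1 and no part of the proteasome. It read 6.18 in treated and 6.31 in untreated cells, a difference of -0.12 on the log2 scale (inhibitor minus no inhibitor, as throughout). Proteasome subunits are not analysed here, so the set is described as conjugating enzymes, cullin-RING ligase components and deubiquitinases.

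Ubiquitin is attached to proteins by a relay of enzymes. An activating enzyme (E1) charges ubiquitin and passes it to a conjugating enzyme (E2, most of the UBE2 genes), and a ligase (E3) brings the charged E2 to a chosen substrate. In cullin-RING ligases a cullin is the scaffold, and an exchangeable receptor picks the substrate: F-box proteins (FBXL, FBXO, FBXW) serve CUL1 through SKP1, and many BTB-Kelch proteins (KLHL) serve CUL3. Deubiquitinases of the USP and OTU families remove ubiquitin again. ERK signalling meets this system at phosphodegrons, short motifs that some F-box proteins bind only once a kinase has phosphorylated them.

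The cell identity and the inhibitor were checked first. All 5 named epithelial markers reached the floor, among them EPCAM (10.5 in treated and 10.5 in untreated cells) and KRT18 (11.3 in treated and 11.6 in untreated cells). Of the markers of other cells, 1 of 3 leukocyte genes (CD68), 0 of 2 fibroblast genes, 0 of 3 endothelial genes and 1 of 3 acinar or endocrine genes (CTRC) reached it. CTRC and the epithelial marker KRT7 did so in the inhibitor array alone. All 9 named ERK targets were lower by at least 2-fold, with a median difference of -1.72. Each was read from its brightest probe set, and for EGR1 and DUSP5 the 2 probe sets disagreed by 0.5 or more or in sign. DUSP4, DUSP5, DUSP6 and EGR1 reached the floor in both arrays. With the inhibitor, SPRY4 (4.77), SPRY2 (4.72), ETV4 (4.55), ETV5 (4.06) and ETV1 (3.32) fell short of it. Those genes were kept through the untreated array alone, which favours lower treated values, and their folds end at a dim signal. Among 443 pairs of probe sets for 1 gene (145 genes), the 2 differences lay 0.16 apart at the median, and 95% of pairs were at most 0.80 apart. Differences below about 0.80 for a single gene therefore lie within the disagreement seen between probe sets.

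Changes in the ubiquitin genes were about as small as those of all genes. The median absolute difference was 0.18 for members and 0.19 for all genes at or above the floor. None of the 124 members at or above the floor differed by 2-fold, against 1.68% of all genes. That share is too low for its absence among 124 genes to set the members apart. At 1.5-fold, 5 of the 124 were higher with the inhibitor, where 4.62% of all genes were, and 0 were lower, where 3.6% of all genes were. Those 5 were the F-box genes FBXO32, FBXO5 and FBXW8, the conjugating enzyme gene UBE2L6 and the BTB-Kelch gene KLHL25. Only FBXO32 exceeded the 0.80 of the probe set pairs. The direction of the differences was less even: 77 members were higher and 46 lower, with 1 equal, so 62.1% were higher against 53.9% of all genes. In a bulk sample a change in cell number of a type and a change of RNA per cell cannot be told apart.

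**Figure D1:**
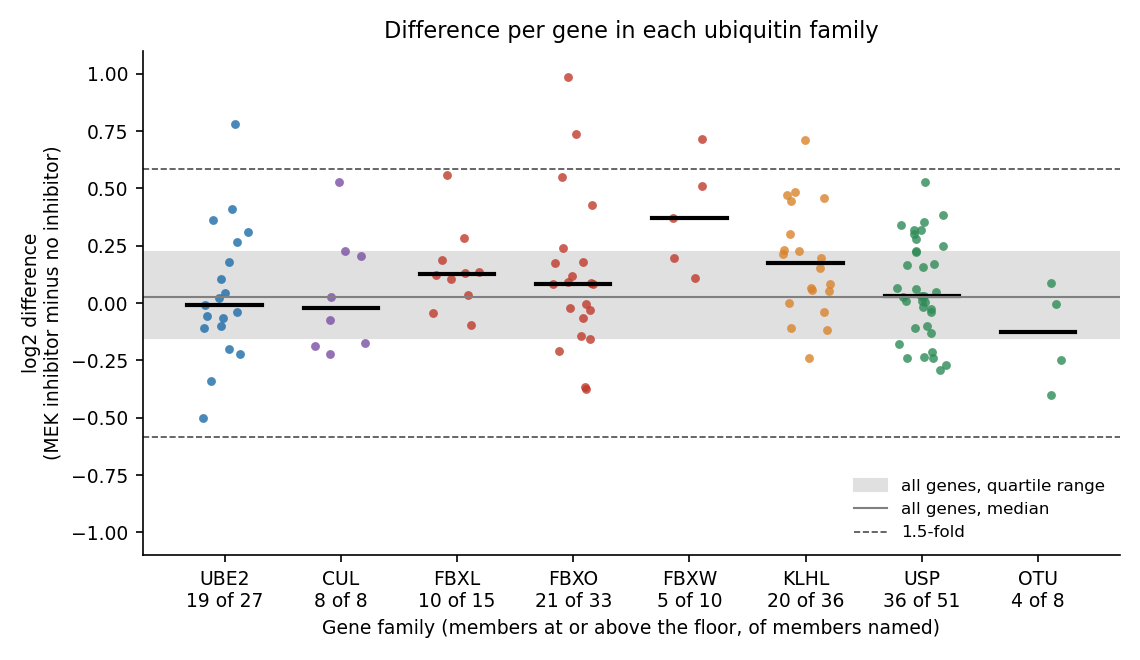
Each point is a gene at or above the floor, placed by family on the x axis and by its log2 difference, MEK inhibitor minus no inhibitor, on the y axis. Black bars are family medians, the grey band and line are the quartile range and median of all 7164 genes, and dashed lines mark 1.5-fold; all 5 FBXW points lie above 0 and the UBE2 points are split 9 to 10.

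FBXO32 had the largest difference. It encodes atrogin-1, an F-box receptor known from muscle, where FOXO factors induce it during atrophy. Probe set 17080788 gave 7.41 in treated and 6.42 in untreated cells, a difference of 0.99 or 1.98-fold. Next came UBE2L6 (probe set 16738544), the conjugating enzyme of the ubiquitin-like protein ISG15, with 7.44 in treated and 6.66 in untreated cells, 1.72-fold higher. FBXO5 (probe set 17024980), which encodes the inhibitor EMI1 of the anaphase-promoting complex, read 5.42 in treated and 4.68 in untreated cells, 1.66-fold higher. FBXW8 (probe set 16757657), the F-box partner of CUL7, read 6.42 in treated and 5.71 in untreated cells, 1.64-fold higher. KLHL25 (probe set 16812897), a CUL3 adaptor for ATP citrate lyase, read 5.19 in treated and 4.47 in untreated cells, also 1.64-fold higher. FBXO5 and KLHL25 were below the floor without the inhibitor, so both folds begin at a dim signal.

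**Figure D2:**
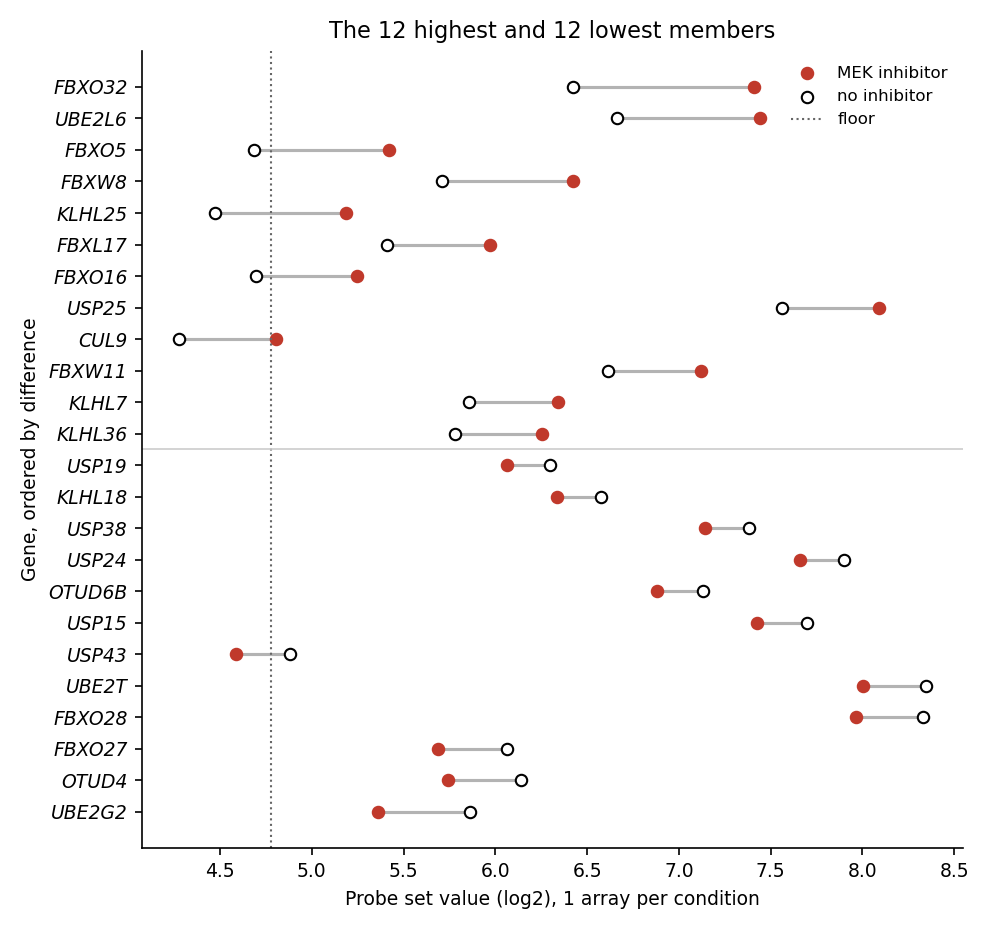
Members with the 12 largest positive and the 12 largest negative differences run down the y axis, with filled points for the MEK inhibitor and open points for no inhibitor on a log2 x axis; the dotted line is the floor of 4.78. The gap is widest for FBXO32 at 0.99 and, among lower genes, for UBE2G2 at -0.50; positions of different genes along the axis are not comparable, since each probe set has its own response.

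Of the 5 genes past 1.5-fold, the start regions of FBXW8, FBXO5 and KLHL25 are shown, UBE2L6 was searched only and FBXO32 is named only. They are shown because ERK acts on transcription through ETS factors, which bind a GGAA core. In the RefSeq promoter table (GRCh38.p14), 101 of the 124 members were found. Windows of 300 bases, 250 before and 50 after each start site, were searched on both strands for 3 motifs. The ETS motif was searched as CCGGAAG. The E-box, bound by basic helix-loop-helix factors such as MYC, was searched as CACGTG. For the CCAAT box, the site of the factor NF-Y, the letters were those of its name. Capitals mark the matches. FBXW8 (chr12:116910700-116910999, plus strand) has an ETS match from position -3 to 4 around its start and an E-box at -84. FBXO5 has 2 starts: the upstream window (chr6:152983530-152983829, minus strand) holds an ETS match at -215, and the downstream window (chr6:152982992-152983291, minus strand) holds 4 CCAAT box matches, of which 2 overlap. KLHL25 (chr15:85794876-85795175, minus strand) has a CCAAT box at -45.
FBXW8: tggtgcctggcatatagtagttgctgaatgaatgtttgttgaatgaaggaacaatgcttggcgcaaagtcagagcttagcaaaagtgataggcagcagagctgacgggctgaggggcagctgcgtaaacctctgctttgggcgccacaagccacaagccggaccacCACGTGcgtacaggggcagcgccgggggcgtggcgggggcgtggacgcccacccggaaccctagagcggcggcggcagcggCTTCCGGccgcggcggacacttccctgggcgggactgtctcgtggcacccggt
FBXO5 upstream start: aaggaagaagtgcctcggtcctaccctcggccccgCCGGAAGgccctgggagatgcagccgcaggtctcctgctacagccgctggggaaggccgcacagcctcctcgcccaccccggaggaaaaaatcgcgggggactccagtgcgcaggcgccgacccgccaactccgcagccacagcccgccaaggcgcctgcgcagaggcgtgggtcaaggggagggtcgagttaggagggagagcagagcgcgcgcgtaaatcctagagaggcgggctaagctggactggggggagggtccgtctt
FBXO5 downstream start: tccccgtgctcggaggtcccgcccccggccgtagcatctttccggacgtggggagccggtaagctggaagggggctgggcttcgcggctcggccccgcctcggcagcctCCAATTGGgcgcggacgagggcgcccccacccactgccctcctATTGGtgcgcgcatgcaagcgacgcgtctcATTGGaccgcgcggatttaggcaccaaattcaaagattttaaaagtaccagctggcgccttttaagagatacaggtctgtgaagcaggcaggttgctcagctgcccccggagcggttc
KLHL25: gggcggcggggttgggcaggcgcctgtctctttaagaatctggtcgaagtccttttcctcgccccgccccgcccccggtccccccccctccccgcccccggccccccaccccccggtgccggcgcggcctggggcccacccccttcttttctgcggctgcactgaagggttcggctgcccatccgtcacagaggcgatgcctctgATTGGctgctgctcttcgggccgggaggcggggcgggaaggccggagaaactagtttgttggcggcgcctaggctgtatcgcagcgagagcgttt

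Neither of the 2 start windows of UBE2L6 held any of the 3 motifs. The ETS letters stood in 30 of 101 member genes (29.7%), 14 of 46 substrate receptors (30.4%), 23.1% of the array's genes at or above the floor and 12.2% of all genes in the table. For the CCAAT box the shares were 36.6% of members, 43.1% of the array's genes at or above the floor and 39.7% of all genes in the table. For the E-box they were 7.92%, 13.1% and 8.77% of the same groups. A match is a run of letters and not a shown binding site.

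Among 19 conjugating enzyme genes at or above the floor, 9 were higher and 10 lower, with a median difference of -0.01 against 0.03 for all genes. After UBE2L6 the highest was UBE2D4, of a group that serves many RING ligases, which read 5.26 in treated and 4.85 in untreated cells (0.41). UBE2H, the enzyme of the CTLH ligase, differed by 0.36. UBE2Z, which is charged by the activating enzyme UBA6, differed by 0.31 and UBE2R2, a CDC34-type enzyme of cullin-RING ligases, by 0.26. At the other end, UBE2G2, an enzyme of endoplasmic reticulum-associated degradation, read 5.36 in treated and 5.86 in untreated cells (-0.50). Its relative UBE2G1, which extends chains on cullin-RING substrates, differed by -0.06. UBE2T, the enzyme of the Fanconi anaemia ligase, read 8.01 in treated and 8.34 in untreated cells (-0.34). UBE2E2 differed by -0.22 and UBE2V2, a variant without a catalytic cysteine, by -0.11. UBE2S, which elongates chains for the anaphase-promoting complex, differed by 0.05. UBE2MP1 is a pseudogene of the NEDD8 enzyme gene UBE2M, and its -0.20 may hold signal of that parent gene, which could not be separated.

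The ISG15 relay can be followed over several of these genes. UBA7, the E1 of ISG15, read 6.12 in treated and 5.54 in untreated cells (0.58), and the E2 gene UBE2L6 differed by 0.78. HERC5, the main human ISG15 ligase, went the other way with 7.45 in treated and 8.03 in untreated cells (-0.58). ISG15 itself read 9.07 in treated and 9.09 in untreated cells. USP18, the protease that removes ISG15, read 10.6 in both arrays, a difference of 0.03. Both other ligase genes looked up were nearly level: HERC6, a relative of HERC5, differed by 0.08 and TRIM25 by -0.05. ISG15 and these 3 ligase genes were picked after their values were seen. The relay thus held genes higher, lower and nearly level.

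All 8 cullins reached the floor, 4 of them higher and 4 lower, with a median of -0.02. CUL1, the scaffold of the F-box receptors, read 8.08 in treated and 8.15 in untreated cells (-0.08). CUL3, the scaffold of the KLHL receptors, read 8.05 in treated and 8.02 in untreated cells (0.03). The other lower cullins were CUL2 (-0.17), which carries VHL, and CUL4A (-0.22) and CUL4B (-0.19), which work through DDB1. The higher ones were CUL5 (0.21), the scaffold of SOCS-box receptors, CUL7 (0.23) and its relative CUL9 (0.53), which binds p53. CUL9 read 4.80 in treated and 4.28 in untreated cells, so it reached the floor in the inhibitor array alone. CUL7 read 5.03 in treated and 4.81 in untreated cells, while its F-box partner FBXW8 differed by 0.72.

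The substrate receptors were put together as a group after seeing the data, and most of them were higher, while the 8 cullins were split 4 to 4. Families differed: 57.1% of FBXO genes (12 of 21), 75% of KLHL (15 of 20), 80% of FBXL (8 of 10) and 100% of FBXW (5 of 5) were higher. Of 56 F-box and KLHL genes at or above the floor, 40 were higher and 15 lower, with 1 equal, or 71.4% higher against 53.9% of all genes. Their median difference was 0.12, against 0.02 for the other 68 members and 0.03 for all genes. Dimmer genes of the array were slightly more often higher (55.3% from the floor to the 75th percentile, 52.5% above it). Of the 40 higher receptors, 6 reached the floor in the inhibitor array alone, and 0 receptors reached it only without the inhibitor. With the floor set on the mean of both arrays, a choice made after seeing the data, 39 of 55 receptors (70.9%) were higher, against 53.7% of all genes. Between the floor and the 75th percentile 28 of 37 receptors were higher, these 6 among them, and above that percentile 12 of 19 were. Receptors were compared with the other members on the same arrays, so the contrast has no replicate.

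**Figure D3:**
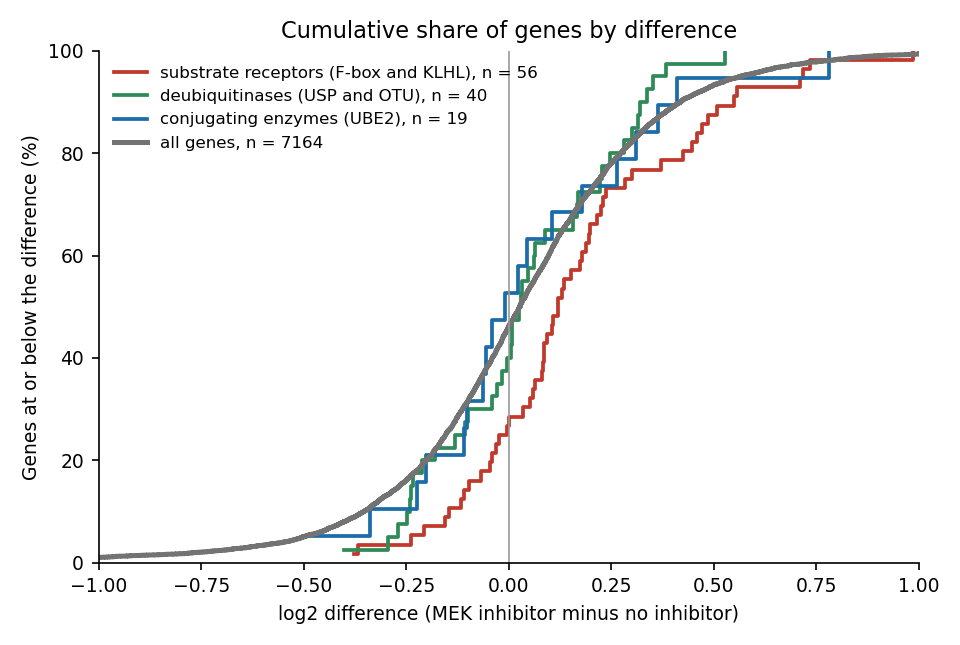
Cumulative share of genes (y axis, percent) at or below each log2 difference, MEK inhibitor minus no inhibitor (x axis, drawn from -1 to 1), for 56 substrate receptors, 40 deubiquitinases, 19 conjugating enzymes and all 7164 genes. The receptor curve runs to the right of the others near 0, with medians of 0.12 for receptors, 0.03 for deubiquitinases, -0.01 for conjugating enzymes and 0.03 for all genes.

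Proteins of the FBXW family have WD40 repeats that often read phosphodegrons. Of 10 FBXW genes named in the annotation, 5 reached the floor, and these were all higher, where 53.9% of all genes were, with a median of 0.37. FBXW7 was not among the 10, so these counts do not cover the whole family. Below the floor, FBXW10 (-0.26) and FBXW12 (-0.10) were lower, and FBXW4 (0.06), FBXW10B (0.12) and the pseudogene FBXW4P1 (0.82) were higher. FBXW11, or beta-TrCP2, which binds phosphorylated beta-catenin and IkappaB, read 7.12 in treated and 6.61 in untreated cells (0.51). Its paralogue BTRC, not a member by its symbol, read 7.30 in treated and 6.76 in untreated cells (0.54). The beta-TrCP genes thus differed by nearly the same amount. FBXW9 differed by 0.37 and was below the floor without the inhibitor. FBXW5, a receptor of the centriole protein SAS-6, differed by 0.20 and FBXW2 by 0.11.

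Of 10 FBXL genes at or above the floor, which carry leucine-rich repeats, 8 were higher, where 53.9% of all genes were, and the median was 0.13. FBXL17, which removes wrongly paired BTB protein dimers, read 5.97 in treated and 5.41 in untreated cells (0.56). The next were FBXL18 (0.28), FBXL19 (0.19), which binds CpG islands through a CXXC domain, FBXL20 (0.13) and the iron sensor FBXL5 (0.13). FBXL14, a receptor of the epithelial-mesenchymal transition factor SNAI1, read 5.88 in treated and 5.98 in untreated cells (-0.10). FBXL4, a mitochondrial protein, differed by -0.04, FBXL6 by 0.03, FBXL8 by 0.11 and FBXL12 by 0.12. FBXL18 has a second, dimmer probe set with -0.19, so its direction depends on the probe set, and the average of both is 0.04.

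Of 21 FBXO genes at or above the floor, 12 were higher (57.1%, near the 53.9% of all genes), and the median was 0.08. Besides FBXO32 and FBXO5, the highest were FBXO16 (0.55), FBXO48 (0.43) and FBXO8 (0.24). FBXO16 read 5.25 in treated and 4.70 in untreated cells, below the floor. The lowest was FBXO27, which binds glycoproteins, with 5.69 in treated and 6.06 in untreated cells (-0.38). FBXO28 read 7.97 in treated and 8.33 in untreated cells (-0.37). FBXO22 (-0.21), FBXO11 (-0.16), a receptor of BCL6, and FBXO34 (-0.14) followed. The direction of FBXO22 depends on the probe set, since a second, dimmer one gave 0.65 and the average of both is 0.22. FBXO7, a Parkinson disease gene whose product binds a proteasome regulator, differed by 0.09.

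Of 20 KLHL genes at or above the floor, 15 were higher (75%, against 53.9% of all genes). A further 4 were lower and KLHL9 was equal at 6.83, and the median was 0.18. Among the higher ones, KLHL24, KLHL25 and KLHL33 reached the floor in the inhibitor array alone. Another 16 KLHL genes lay below it in both arrays and are not counted. After KLHL25 came KLHL7 with 6.34 in treated and 5.86 in untreated cells (0.49). KLHL36 (0.47), KLHL5 (0.46) and KLHL11 (0.45) followed closely. KLHL5 read 7.98 in treated and 7.52 in untreated cells. KLHL12, a receptor of the COPII coat protein SEC31, differed by 0.30 and KLHL20 by 0.23. The lower genes were KLHL18 (-0.24), a receptor linked to Aurora A, KLHL8 (-0.12), KLHL15 (-0.11), a receptor of a PP2A subunit, and KLHL29 (-0.04). KEAP1, the BTB-Kelch sensor of oxidative stress that carries another symbol, read 8.18 in treated and 7.62 in untreated cells (0.56). KEAP1 and BTRC were the highest of the list of cullin-RING core genes. Of other receptor genes in that list, SPOP (-0.21) and CCNF (-0.11) were lower and CRBN (0.12) higher.

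By median, the deubiquitinases lay closest to all genes among the 3 classes. Of 40 USP and OTU genes at or above the floor, 24 were higher (60%, against 53.9% of all genes) and 16 lower. Their median was 0.03, the same as for all genes. None reached 1.5-fold, where 4.62% of all genes were higher and 3.6% lower. USP25, a regulator of TRAF signalling, read 8.09 in treated and 7.56 in untreated cells (0.53). USP28, its closest relative and a stabiliser of MYC, differed by 0.03. USP31 (0.38), USP37 (0.35), a deubiquitinase of cyclin A, USP33 (0.34) and USP12 (0.32) were the next highest. The lowest USP genes were USP43 (-0.29), USP15 (-0.27), which acts in TGF-beta signalling, USP24 (-0.24), USP38 (-0.24) and the endoplasmic reticulum enzyme USP19 (-0.23). USP15 read 7.43 in treated and 7.70 in untreated cells, and USP43 was below the floor in treated cells (4.59, against 4.88 in untreated cells).

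Several deubiquitinases with well-known roles were nearly level. USP7, which acts on p53 and MDM2, read 9.23 in treated and 9.36 in untreated cells (-0.13). USP1, of the Fanconi anaemia pathway, differed by -0.11, the histone deubiquitinase USP22 by 0.01 and the endosomal USP8 by 0.01. USP5, which takes apart free ubiquitin chains, differed by 0.23. USP39 (0.32) is a splicing factor without protease activity, and USP6NL (0.05) is a RAB GTPase-activating protein and no deubiquitinase. Of 4 OTU genes, 3 were lower: OTUD4 with 5.74 in treated and 6.14 in untreated cells (-0.40), OTUD6B (-0.25) and OTUD7B (-0.01), while OTUD5 differed by 0.09.

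**Figure D4:**
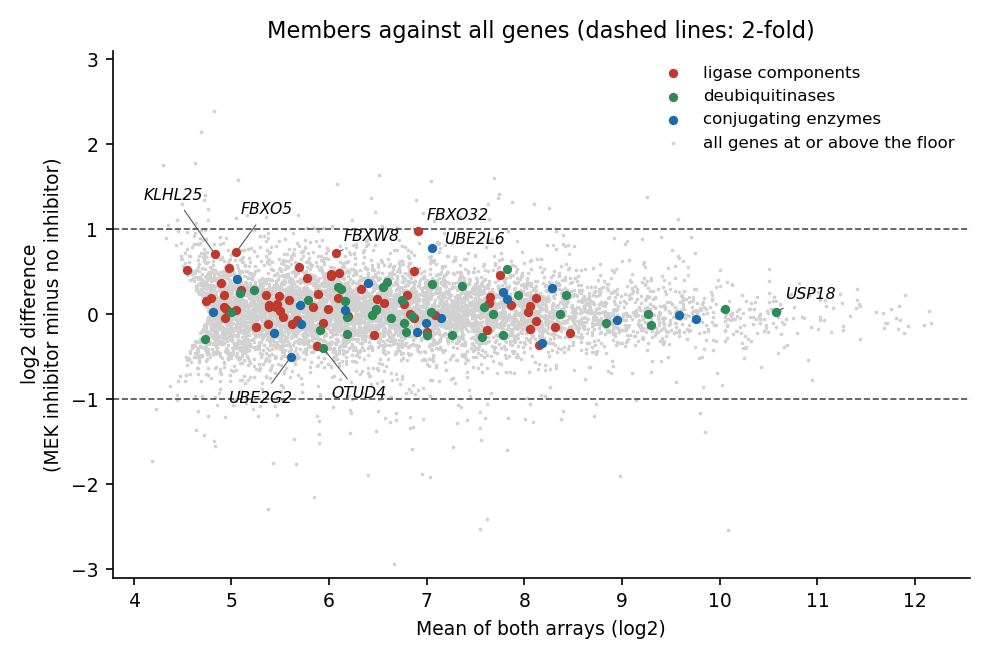
Each point is a gene, with the mean of both arrays on the x axis (log2) and the log2 difference, MEK inhibitor minus no inhibitor, on the y axis; coloured points are members and grey points all genes at or above the floor. No coloured point lies beyond the dashed lines at 2-fold, and the nearest is FBXO32 at 0.99.

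The median of the 64 ligase components, cullins included, was 0.11, which is 0.12 above that of the conjugating enzymes and 0.09 above that of the deubiquitinases. These gaps are smaller than the median disagreement of 0.16 between probe sets of a gene, although that figure is for single genes and not for medians.

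Genes that work with the members showed no large shift either. Of 7 ubiquitin and E1 genes, 3 were higher and 4 lower, with a median of -0.02. UBA1, the main ubiquitin E1, read 10.4 in both arrays. NAE1, a subunit of the NEDD8 E1 that switches cullins on, read 8.61 in treated and 8.91 in untreated cells (-0.30), whereas its partner UBA3 differed by 0.13. Of 18 cullin-RING core, NEDD8 and COP9 signalosome genes, 10 were higher and 8 lower, with a median of 0.02. KEAP1 and BTRC were the highest of them, followed by the COP9 subunit gene COPS4 (0.32). COP9 subunit genes were also the lowest, with COPS9 at -0.52 and COPS8 at -0.31. SPOP, a CUL3 receptor, differed by -0.21.

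Proteasome function could be approached only through its accessory genes, of which 4 of 9 were higher and 5 lower, with a median of -0.03. ADRM1, a ubiquitin receptor of the proteasome, read 8.54 in treated and 8.90 in untreated cells (-0.36). POMP, the assembly chaperone of the catalytic core, differed by -0.20 and AKIRIN2, which carries proteasomes into the nucleus, by -0.11. PAAF1, which binds proteasomal ATPases, differed by 0.41, and the shuttle gene UBQLN2 by 0.23. Of the proteasome-bound deubiquitinases, UCHL5 read 6.26 in treated and 5.87 in untreated cells (0.39), and the member USP14 read 10.1 in treated and 10.0 in untreated cells (0.06). NFE2L1, a transcription factor that induces proteasome genes, read 9.15 in treated and 8.91 in untreated cells (0.24). Its list of VCP, endoplasmic reticulum degradation and regulator genes had 9 of 12 higher, where 53.9% of all genes were, and a median of 0.08. Its members include DERL2 (0.26), NSFL1C (0.21), FAF1 (-0.40), FAF2 (-0.14) and UFD1 (-0.02).

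Of 11 other deubiquitinases, 9 were higher and 2 lower, where 53.9% of all genes were higher, and the median was 0.10. STAMBPL1, an endosomal enzyme specific for one chain type, was the only one past 1.5-fold, with 6.31 in treated and 7.07 in untreated cells (-0.76). Of all genes, 3.6% were lower by 1.5-fold. CYLD, a negative regulator of NF-kappaB, read 6.78 in treated and 6.30 in untreated cells (0.48), followed by JOSD1 (0.39) and VCPIP1 (0.16), and UCHL3 differed by -0.10. Of 27 other ligases, 14 were higher and 13 lower, with a median of 0.02. The highest were ANAPC11 (0.48), UBE3B (0.36) and SMURF2 (0.34), and the lowest ITCH (-0.29), UBR1 (-0.26) and CDC20 (-0.26).

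The 65 members below the floor in both arrays were 16 KLHL, 15 USP, 12 FBXO, 8 UBE2, 5 FBXL, 5 FBXW and 4 OTU genes. Their values lay between 1.72 and 4.73, and 29 were higher and 36 lower. The share higher was 44.6%, against 47.5% of all genes below the floor, with medians of -0.03 and -0.01. In 64 of the 65 members the difference was smaller than 0.5, a share not computed for all genes below the floor. They include UBE2N (3.28 in treated and 3.50 in untreated cells), the catalytic partner of UBE2V1 and UBE2V2, and UBE2B (4.20 in treated and 4.46 in untreated cells). USP17L12 and USP17L9P, near-identical copies of a repeated family, shared their value in each array and cannot be told apart. USP2 and USP17L9P each have 2 probe sets that differ in sign.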

How the data were processed

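Total RNA of 2 S2-013 cultures, 1 per condition, was measured on arrays, and each sample was grouped by its title. Per the labels, 100 ng of RNA was made into biotinylated cDNA with the GeneChip WT PLUS kit. The deposited table holds log2 values, 1 per probe set and array. The log2 scale is inferred from the values (1.16 to 13.4), and every fold assumes it. Affymetrix Expression Console 1.3 was used, per the submitters' processing notes, and its settings are not stated there. The array medians, 3.46 for treated and 3.49 for untreated cells, were close, so values were used as deposited. A method that equalises arrays hides global shifts.

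Names came from the platform annotation, and all 189 members matched the reference gene table by Entrez identifier. Probe sets of small RNA (MIR, SCARNA) were left out. Each gene was read from its brightest probe set (mean of both arrays). A gene was kept when its higher value reached the floor of 4.78. Lists with fewer than 3 kept members got no median. With 1 array per group there was no test, and the number of arrays limits the precision. The members and lists were chosen with earlier results of these data known. The named genes were the cullins, the proteasome-prefix gene, the 5 highest and 5 lowest of each family, and members whose probe sets disagree by 0.5 or in sign. Of the lists, genes among the 3 highest and 3 lowest are named, though not all of them. Others are named for a known role and were chosen after their values were seen. Promoters came from RefSeq. The code was tested on simulated data with known shifts added, which tells nothing of the noise between arrays. Python 3.11.15, numpy 2.4.6, pandas 2.3.3, statsmodels 0.14.6 and matplotlib 3.10.9 were used.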

Additional observations from a re-analysis of the deposited data

Results flagged for a closer look

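Differences past 1.5-fold were read in 2 probe sets of the gene set that the comparisons did not use. The second probe set of FBXO22 (16811884) read 4.19 in treated and 3.54 in untreated cells, a difference of 0.65, against -0.21 for the brighter probe set. Its annotated accession is that of a non-coding transcript. FBXW4P1, a pseudogene, read 4.47 in treated and 3.65 in untreated cells, a difference of 0.82. Both probe sets lie below the floor in both arrays, and the cause was not tested.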

How the results depend on the processing

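No paired analysis was possible because the treated and the untreated cells have 1 array each, nor was a leave-one-out setting. The planned proteasome median and its comparisons with the other classes were not run, since the search found 0 proteasome subunit genes. The alternatives were subtraction of the median difference or a loess trend, no filter, a 75th percentile filter, averaged probe sets, and leaving out genes with disagreeing probe sets or each class's member with the largest difference. A floor on the mean of both arrays and leaving out pseudogenes, non-coding transcripts and USP6NL were chosen after seeing the data, as were the receptor group and the gaps between ligases and the other classes. The count of members past 2-fold was 0 under each of these and at 3-fold, and 5 at 1.5-fold. No class median or gap between medians moved by 0.05 or more. The share of receptors higher with the inhibitor was 71.4%, and it was 63.2% (12 of 19) with the 75th percentile filter, 64.9% (61 of 94) without a filter and 69.6% (39 of 56) after loess, where 52.5%, 50.8% and 49.2% of all genes were. Medians near 0 changed sign: the deubiquitinases read -0.004 after loess and the conjugating enzymes 0.007 without the pseudogene. Among 68 named genes, FBXO22 moved past 0.16, to 0.22 with averaged probe sets, and FBXL18 then lay below the floor, with its difference of 0.28 becoming 0.04. Of 8 members at the floor in 1 array only, 7 reached it with the inhibitor.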
